A study of Mus musculus with 19 samples.

Results

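The miR-125 family members mmu-miR-125a-5p and mmu-miR-125b-5p (miR-125a-5p and miR-125b-5p below) were followed in the livers of mice given dibenz[a,h]anthracene (DB[a,h]A), a polycyclic aromatic hydrocarbon that is activated in the liver to DNA-binding metabolites. Both were found by their names on the array, and they were 2 of the 696 mouse microRNAs (miRNAs) measured. They were set beside miR-34a, a transcriptional target of p53. Male MutaMouse animals aged 10 weeks, a transgenic strain that carries bacterial reporter genes for scoring mutations, received olive oil alone or 6.25, 12.5 or 25 mg/kg/day of DB[a,h]A in olive oil by gavage on 28 days, and the liver was taken 3 days later. These groups are called control (n = 5), low dose (n = 5), middle dose (n = 4) and high dose (n = 5), and each mouse is named by its sample number in the labels. All 19 arrays were one-colour, with RNA of 1 mouse each, and no group was without the transgene. A piece of whole liver was used, so fewer cells of a type and less miRNA per cell cannot be told apart. Both the members and the lists of related miRNAs were chosen after earlier results of these data were known.

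Animal miRNAs guide Argonaute proteins to messenger RNAs through the seed, the bases near their 5′ end, and lower the output of the matching messages. The miR-125 family is the vertebrate counterpart of the worm miRNA lin-4. In human cells and zebrafish, miR-125b binds the 3′ untranslated region of the p53 message and lowers p53 protein, and miR-125a has been reported to do so in human cells. In the opposite position, miR-34a is made when p53 binds its promoter after DNA damage. In liver, miR-125b is also known from stellate cells and other mesenchymal cells.

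The mature sequences of RefSeq (build GRCm38.p6) are shown because the shared seed defines the family. Seed bases 2 to 8 are in capitals.

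miR-125a-5p: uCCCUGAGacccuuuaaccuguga
miR-125b-5p: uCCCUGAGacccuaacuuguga
miR-351-5p: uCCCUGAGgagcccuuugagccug
miR-34a-5p: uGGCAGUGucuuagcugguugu

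The first 13 and the last 5 bases of miR-125a-5p and miR-125b-5p were the same, and 21 of 24 aligned positions were identical (87.5%). Outside the seed and base 1, miR-351-5p differed from both. Of 1679 mature mouse miRNA names in the RefSeq table, 5 carried the seed CCCUGAG (0.298%), and 4 carried the miR-34a seed GGCAGUG (0.238%). The gene Mir125a placed miR-125a-5p at chr17:17830817-17830840 on the plus strand, within the bounds of the protein-coding gene Spaca6. MiR-125b-5p is made from 2 genes with the same mature sequence. Mir125b-1 placed it at chr9:41581940-41581961 on the plus strand, within the long non-coding RNA gene Mir100hg, and Mir125b-2 placed it at chr16:77646279-77646300 on the plus strand. Gene bounds were used for these overlaps, and exons were not used here. The 5p signal therefore could not be assigned to either miR-125b gene, whereas the 3p arms of the 2 genes differ. The hairpins of Mir125a and Mir125b-1 show the 5p arm, in capitals, ahead of the 3p arm that the array measured separately.

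Mir125a: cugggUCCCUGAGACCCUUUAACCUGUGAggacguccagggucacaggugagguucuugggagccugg
Mir125b-1: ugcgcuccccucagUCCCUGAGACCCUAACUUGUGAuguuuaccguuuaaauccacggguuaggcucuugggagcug

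The 3p arms are shown with bases 2 to 8 in capitals, because they are what would tell the genes apart.

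miR-125a-3p: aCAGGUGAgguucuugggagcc
miR-125b-1-3p: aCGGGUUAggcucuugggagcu
miR-125b-2-3p: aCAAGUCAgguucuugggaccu

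None of these 3 arms, nor miR-351, was detected by the scanner software on any of the 19 arrays. The family signal in these livers thus came from the 5p arms alone, as far as this array could measure it. Other miRNAs of close sequence can bind a probe on such arrays, and how far the probes of the 2 members share signal was not tested.

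Array signal was lower on average in the dosed groups, though no difference passed after adjustment, and it is given first because the unscaled signals of both members depend on it. The 75th percentile of the background-subtracted signal, taken over the 220 probes that were well above background on all arrays, averaged 357 ± 111 in control, 301 ± 74.6 in low dose, 215 ± 60.7 in middle dose and 195 ± 37.4 in high dose arrays (SD; n = 5, 5, 4 and 5). The log2 differences from control were -0.22, -0.71 and -0.83 for the low, middle and high dose, with adjusted exact permutation p of 0.495, 0.0816 and 0.0571 over 12 comparisons of unscaled signals. Within slides these differences were -0.24, -0.46 and -0.67. Levels below are therefore log2 of the signal divided by this percentile, with values below a floor of -4.79 (3.61% of the percentile) raised to it. The arrays lay on 3 slides that each held all 4 groups, and the slide was a fixed block in the main limma fits. Control and low dose arrays mostly lay in the upper row of a slide, and middle and high dose arrays in the lower row. Replicates of a group correlated at 0.961 to 0.997 over the 208 miRNAs that the scanner software detected on at least 4 arrays, which were the ones tested.

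MiR-125b-5p was measured in all livers and did not pass the test at any dose. Its probe was well above background on 19 of 19 arrays. The levels in control mice 1, 10, 17, 19 and 22 were -0.40, -0.40, -0.03, -0.14 and -0.00. Low dose mice 3, 11, 12, 18 and 24 had levels of -0.41, -0.04, -0.01, -0.00 and -0.06. Middle dose mice 5, 6, 14 and 20 had -0.47, -0.27, 0.41 and -0.08. High dose mice 7, 8, 15, 16 and 23 had -0.63, -0.12, -0.11, 0.03 and -0.26. All 4 groups overlapped: at each dose, 1 mouse lay above all controls and 1 lay below all controls. The highest level was that of middle dose mouse 14, and the lowest that of high dose mouse 7. By slide, the mean level was -0.38 ± 0.17 on slide 1, -0.02 ± 0.26 on slide 2 and -0.08 ± 0.09 on slide 3 (SD; n = 6, 6 and 7). Slide 1 held 1 of the controls and slide 3 held 3 of them.

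The level of miR-125b-5p averaged -0.19 ± 0.20 in control, -0.10 ± 0.17 at the low dose, -0.10 ± 0.37 at the middle dose, and -0.22 ± 0.25 in high dose mice (SD). With the slide as a block, it differed from control by 0.08 on the log2 scale at the low dose (SE 0.12; 95% interval -0.17 to 0.33; limma adjusted p = 0.952). This is 1.06-fold, with an interval of 0.886 to 1.26. At the middle dose the difference was 0.19 (SE 0.13; -0.08 to 0.46; limma adjusted p = 0.355), or 1.14-fold (0.943 to 1.38). The high dose differed by 0.03 (SE 0.12; -0.23 to 0.29; limma adjusted p = 1), or 1.02-fold (0.853 to 1.23). The intervals thus held both small rises and small falls, and over the 3 doses they ran from 0.853-fold to 1.38-fold. Without middle dose mouse 14 the middle dose difference was 0.06, and without control mouse 10 the high dose difference was -0.10. The slope over dose was 0.000684 log2 units per mg/kg/day (limma adjusted p = 1).

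Within slides, miR-125b-5p moved in no common direction. Slide 2 had differences from its only control of 0.38, 0.81 and 0.36 for the low, middle and high dose. The same differences were -0.02, 0.03 and 0.02 on slide 1 and 0.02, -0.02 and -0.20 on slide 3. No test was run on single slides, and slides 1 and 2 held 1 control each. A dimmer probe of miR-125b-5p, well above background on 10 arrays, gave 0.12, 0.09 and 0.11 at the 3 doses (limma adjusted p = 0.847, 0.786 and 0.701).

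Before scaling, the miR-125b-5p signal was lower at higher doses together with the whole array. It averaged 323 ± 134 in control, 286 ± 90.9 at the low dose, 208 ± 83.6 at the middle dose, and 167 ± 28.5 in high dose mice (SD, background-subtracted signal). High dose signals were 141, 208, 162, 142 and 183, against 167, 260, 434, 262 and 490 in control mice. These ranges overlapped, though 4 of the 5 controls lay above every high dose mouse. The unscaled log2 difference at the high dose was -0.86, close to the -0.83 of the array percentile, with an exact permutation p of 0.0238 (adjusted 0.0571 over 12) and -0.62 within slides (exact p = 0.0556).

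**Figure D1:**
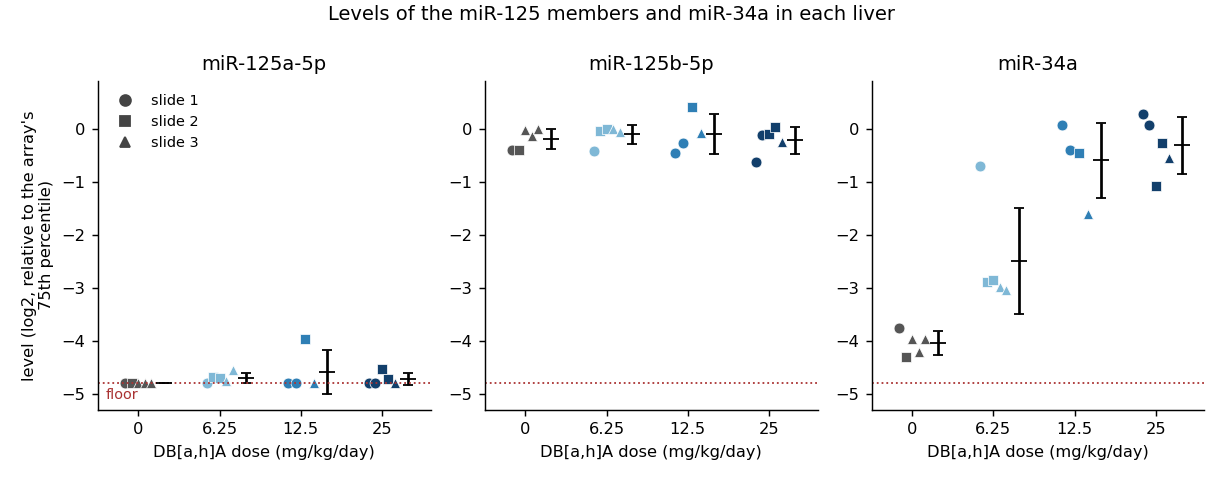
Level of each miRNA (log2 of signal over the 75th percentile of the array) in each mouse against DB[a,h]A dose in mg/kg/day, with point shape for the slide, bars for mean ± SD, and a dotted line at the floor of -4.79. MiR-125a-5p lies at or near the floor in all groups, miR-125b-5p stays between -0.63 and 0.41, and miR-34a is above all control levels in every dosed mouse.

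MiR-125a-5p lay close to background, so its dose response could be measured only within narrow limits. Its brighter probe was well above background in 4 of 5 control and 4 of 5 low dose mice, and in 0 of 4 middle and 0 of 5 high dose mice. The scanner software's own call was less strict. It detected miR-125a-5p in 5 of 5 control, 4 of 5 low dose, 2 of 4 middle dose and 4 of 5 high dose mice. The signals were 6.14, 11.4, 13.7, 9.52 and 15.3 in control mice 1, 10, 17, 19 and 22. In low dose mice 3, 11, 12, 18 and 24 they were 5.04, 14.4, 12.9, 13.2 and 9.54. In middle dose mice 5, 6, 14 and 20 they were 4.23, 5.51, 13.2 and 10.5. In high dose mice 7, 8, 15, 16 and 23 they were 6.19, 7.43, 7.55, 5.27 and 7.03. All high dose signals lay below those of 4 of the 5 controls and around that of control mouse 1. Slide and signal were linked as well: the probe was well above background on 0 of 6 arrays of slide 1, 3 of 6 of slide 2 and 5 of 7 of slide 3. A second miR-125a-5p probe was not well above background on any array and gave no value.

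After division by the array percentile, the mean level of miR-125a-5p was not lower in any dose group. No middle or high dose signal was well above background, so the direction of a change there was not measured. Before the floor, its scaled log2 level averaged -5.004 ± 0.10 in control, -4.83 ± 0.35 at the low dose, -4.80 ± 0.60 at the middle dose, and -4.86 ± 0.23 in high dose mice (SD). The middle dose mean was raised by mouse 14: mice 5, 6, 14 and 20 had -5.38, -4.99, -3.97 and -4.85. The floor raised 12 of 19 values, among them all 5 controls, 1 low dose, 3 middle dose and 3 high dose values. Levels above the floor were -4.69, -4.70, -4.76 and -4.55 in low dose mice 11, 12, 18 and 24, -3.97 in middle dose mouse 14, and -4.53 and -4.72 in high dose mice 15 and 16. The bound on the middle and high dose levels (-4.37 and -4.41) was above the control mean. Fold changes at these doses, given below with the floor, are therefore not between groups that both have measured values. Array brightness did not run with these detections throughout. Middle dose mice 14 and 20 had miR-125a-5p signals of 13.2 and 10.5 with 33.3% and 30.0% of spots well above background, against a signal of 9.52 with 100% of spots in control mouse 19. The array percentile of middle dose mouse 20 was 304, against 288 for control mouse 19. The part of array brightness in the detections was not tested.

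In limma with the floor, miR-125a-5p differed from control by 0.06 at the low dose (SE 0.11; 95% interval -0.18 to 0.30; adjusted p = 0.998). It differed by 0.22 at the middle dose (SE 0.12; -0.04 to 0.48; limma adjusted p = 0.257) and by 0.05 at the high dose (SE 0.11; -0.20 to 0.30; limma adjusted p = 0.899). As fold changes of the floored levels these were 1.04, 1.17 and 1.03. At the middle and high dose they rest on signals not well above background. The floor holds the controls at 1 value and so narrows these intervals. With a floor 4 times lower, the differences were 0.13, 0.31 and 0.18 (limma adjusted p = 0.711, 0.192 and 0.441). Middle dose mouse 14 decided the middle dose value, which was 0.03 without it. Within slide 2 the middle dose difference was 0.83. Within slides 1 and 3 it was 0 because the floor held all control and middle dose values there, so no change was measured.

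**Figure D2:**
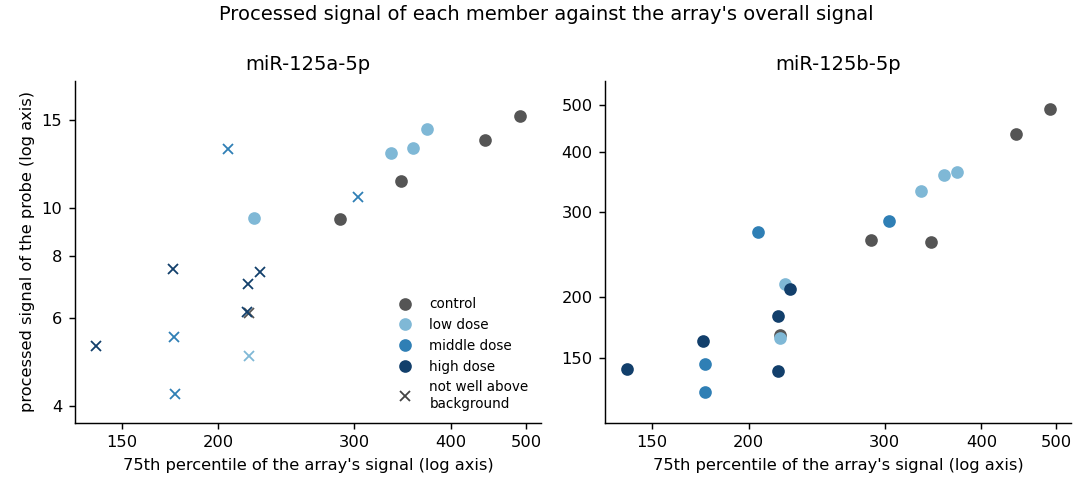
Background-subtracted signal of miR-125a-5p and miR-125b-5p (vertical, log axis) against the 75th percentile of the signal of the same array (horizontal, log axis), coloured by dose group. Crosses mark arrays on which the probe was not well above background. High dose arrays gather at the dim end, with miR-125a-5p signals of 5.27 to 7.55, and middle dose mouse 14 stands above the other arrays of like brightness.

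Neither member passed the threshold of an adjusted p under 0.05 at any dose. The limma test called 9 of the 208 tested miRNAs at the low dose (4.33%), 12 at the middle dose (5.77%) and 5 in the high dose group (2.4%), all higher than control. Of the members, 0 of 2 were called at each dose. An unadjusted p under 0.05 was likewise found for 0 of 2, against 28, 52 and 53 of the 208 tested miRNAs as dose increased. The mean of the 3 doses against control was 0.11 for miR-125a-5p (adjusted p = 0.513) and 0.10 for miR-125b-5p (adjusted p = 0.610), in a limma comparison that called 8.17% of miRNAs. The F test across the 4 groups called 0.962%, with adjusted p of 0.560 for miR-125a-5p and 0.692 for miR-125b-5p. The linear trend also called 0.962%, and the slope of miR-125a-5p was 0.00171 log2 units per mg/kg/day (limma adjusted p = 0.937). Between doses, miR-125a-5p differed by 0.16 and miR-125b-5p by 0.11 at the middle against the low dose, where limma called 0.481% of miRNAs. At the high against the low dose they differed by -0.01 and -0.05 (0.481% called), and at the high against the middle dose by -0.17 and -0.16 (0% called by limma, with 14 of 208 at an unadjusted p under 0.05). The lowest adjusted p of a member in these comparisons between doses was 0.580. The median of all tested miRNAs was 0.07, 0.11 and 0.05 above control at the low, middle and high dose. Relative to it, miR-125a-5p lay at -0.01, 0.11 and -0.00, and miR-125b-5p at 0.00, 0.08 and -0.02.

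The signs of the members' small differences depended on the scaling of the arrays. With no scaling, miR-125b-5p differed by -0.10, -0.38 and -0.67 and miR-125a-5p by -0.01, -0.10 and -0.38 at the 3 doses. The slopes were then -0.0280 and -0.0162 log2 units per mg/kg/day, and they passed the threshold (limma adjusted p = 0.0255 and 0.0272). The median of all tested miRNAs also moved, to -0.04, -0.24 and -0.47 at the low, middle and high dose. Relative to that median, miR-125b-5p lay at -0.06, -0.14 and -0.20, and miR-125a-5p at 0.03, 0.14 and 0.09. Division by the percentile over all probes gave -0.30 and -0.23 for miR-125b-5p at the middle and high dose, with the median of all tested miRNAs at -0.15 and -0.08. The labelling spike-in controls averaged 10.67, 10.53, 10.12 and 9.77 (log2 signal) in control, low, middle and high dose arrays. Scaled by them, miR-125b-5p differed by 0.02, 0.02 and 0.12 and miR-125a-5p by 0.07, 0.10 and 0.06 at the 3 doses. The part of labelling in the unscaled slopes was not tested.

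**Figure D3:**
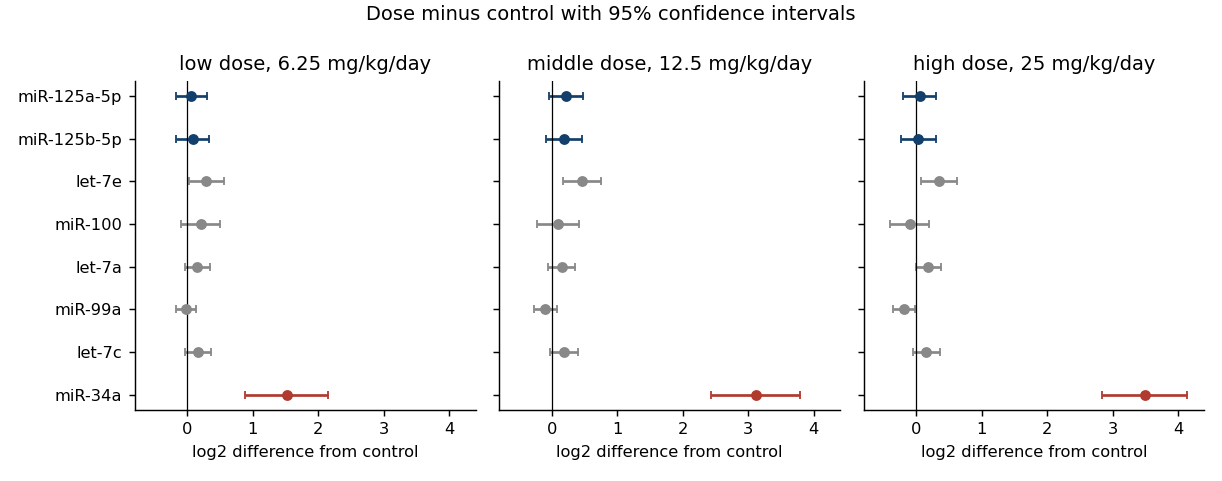
Log2 difference of each dose group from control (points) with 95% confidence intervals from limma, for both members, the tested miRNAs of their genomic clusters and miR-34a. Intervals of the members include 0 at every dose, and those of miR-34a lie between 0.89 and 4.14.

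MiR-34a, which p53 induces, rose in the same livers. Its levels were -3.75, -4.31, -3.97, -4.21 and -3.96 in control mice 1, 10, 17, 19 and 22. Low dose mice 3, 11, 12, 18 and 24 had -0.71, -2.89, -2.86, -2.99 and -3.04. Middle dose mice 5, 6, 14 and 20 had 0.08, -0.41, -0.45 and -1.61, and high dose mice 7, 8, 15, 16 and 23 had 0.28, 0.06, -1.08, -0.27 and -0.55. Every dosed mouse lay above every control, and low dose mouse 3 lay far above the rest of its group. The differences from control were 1.52, 3.11 and 3.49 on the log2 scale (limma adjusted p = 0.0165, 3.59e-05 and 4.88e-06). The low dose call was lost under 11 of 19 alternatives, and also without control mouse 10 (difference 1.46, limma adjusted p = 0.0704). Without low dose mouse 3 the difference was 1.21 (limma adjusted p = 0.0308). This rise was known beforehand and serves here as the yardstick for the members.

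Within an array, a difference between 2 miRNAs does not depend on how arrays are scaled, apart from the floor. Only its change with dose is meaningful, because 2 probes differ in brightness for reasons of their own. MiR-125b-5p minus miR-34a was 3.85 ± 0.28 in control, 2.39 ± 1.17 at the low dose, 0.50 ± 0.90 at the middle dose, and 0.09 ± 0.70 in high dose mice (log2, SD). In control mice 1, 10, 17, 19 and 22 it was 3.35, 3.91, 3.94, 4.07 and 3.95. All 14 dosed mice lay below all 5 controls, the nearest being low dose mouse 18 at 2.99. The changes of -1.45, -3.35 and -3.75 each had an exact permutation p of 0.00794, the smallest this design allows (adjusted 0.0119 over 9 comparisons). Over the 19 arrays the SD of the level was 1.68 for miR-34a and 0.24 for miR-125b-5p. The rise of miR-34a was known beforehand, so this test is largely one of that rise. The low dose call was lost with normexp (-0.75, adjusted exact p = 0.0918) and with a floor 4 times higher (-0.33, adjusted exact p = 1). With labels exchanged only within slides, the changes were -1.46, -2.99 and -3.62, and p took its smallest possible values of 0.0167, 0.0417 and 0.0278 (adjusted exact p = 0.0625 each).

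For miR-125a-5p minus miR-34a, all 5 controls and 12 of 19 arrays had miR-125a-5p at the floor, so the difference was largely a constant minus miR-34a. Its test is therefore largely one of the miR-34a rise already given, and says little about miR-125a-5p. The difference was -0.75 ± 0.22 in control, -2.20 ± 1.06 at the low dose, -3.99 ± 0.77 at the middle dose, and -4.41 ± 0.63 in high dose mice (log2, SD). The changes were -1.45, -3.23 and -3.66, each with an exact permutation p of 0.00794 (adjusted 0.0119) and with all dosed mice below all controls. Within slides they were -1.47, -2.99 and -3.62 (adjusted exact p = 0.0625 each). Low dose mouse 3 stood apart in both differences, at 0.29 for miR-125b-5p and -4.09 for miR-125a-5p. Without it the low dose changes were -0.93 and -0.98 (adjusted exact permutation p = 0.0238 and 0.0143).

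For miR-125a-5p minus miR-125b-5p no change passed, and all controls again had miR-125a-5p at the floor. It was -4.60 ± 0.20 in control, -4.59 ± 0.16 at the low dose, -4.48 ± 0.18 at the middle dose, and -4.51 ± 0.23 in high dose mice (log2, SD). Its changes from control were 0.01, 0.12 and 0.09 (exact permutation p = 0.889, 0.381 and 0.563; adjusted 0.889, 0.490 and 0.634). Within slides the changes were -0.02, 0.00 and 0.00. With a floor 4 times lower they were 0.09, 0.12 and 0.17, and with normexp 0.32, 0.76 and 0.57 (lowest adjusted exact permutation p = 0.0833).

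**Figure D4:**
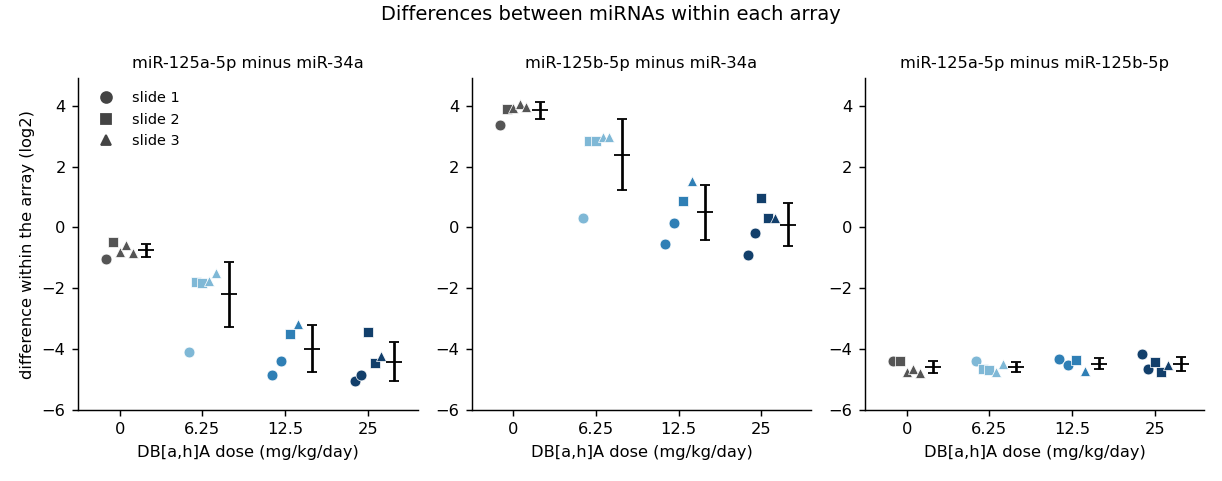
Log2 difference between 2 miRNAs within the same array (vertical) for each mouse against DB[a,h]A dose in mg/kg/day, with point shape for the slide and bars for mean ± SD. Both differences from miR-34a are below all 5 controls in every dosed mouse, whereas the difference between the members stays between -4.79 and -4.16 in all groups.

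The correlation of the members across mice depended on the background correction and the floor. Over the 19 arrays Pearson's r of their levels was 0.655 (permutation p = 0.00210, adjusted 0.0105 over 5 relations) and Spearman's rho was 0.628 (permutation p = 0.00442, adjusted 0.0221). Without middle dose mouse 14 and high dose mouse 15, the arrays farthest from the median of miR-125a-5p, r was 0.410 (permutation p = 0.0897). Spearman's correlation over these 17 arrays was 0.601 (permutation p = 0.0110, adjusted 0.0276). With a floor 4 times lower, r was 0.820 over all arrays and 0.691 without the 2 arrays then farthest from the median, middle dose mouse 14 and low dose mouse 3 (permutation p = 0.00234, adjusted 0.00468). With normexp background correction, r was 0.098 (permutation p = 0.677). With slide and dose means removed, r was 0.568 (permutation p = 0.0120) and rho was 0.350 (permutation p = 0.142). Within slide 2, r was 0.836 over 6 arrays (exact permutation p = 0.0444), and within slide 3 it was 0.136 over 7 arrays (exact permutation p = 0.738). Slide 1 gave no value, because all 6 of its miR-125a-5p values lay at the floor.

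The miRNAs most like the members are given as a description, by Pearson's r over the 19 arrays with slide means removed. The points share RNA, array and the percentile that scaled them. For miR-125b-5p they were miR-195 (r = 0.829), miR-199a-3p (0.792), miR-199b* (0.757), miR-200b (0.752) and miR-497 (0.742), against a median of 0.134 over 136 miRNAs. Spearman's correlations of these 5 were 0.732, 0.639, 0.667, 0.704 and 0.556. For miR-125a-5p they were miR-29c* (0.708), miR-199a-3p (0.696), miR-195 (0.648), miR-199a-5p (0.646) and miR-125b-5p (0.644), against a median of 0.192 over 137. Spearman's correlations were lower here, at 0.594, 0.396, 0.312, 0.333 and 0.209, and 12 of the 19 miR-125a-5p values lay at the floor. MiR-34a ranked 38 of 136 for miR-125b-5p (r = 0.235) and 35 of 137 for miR-125a-5p (r = 0.325). The miR-199 family and miR-214 are known from stellate cells and other mesenchymal cells, and miR-195 and miR-497 come from 1 cluster. The miR-200 family is known from epithelia, bile duct included.

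Middle dose mouse 14 stood out in most of these miRNAs. Those most like the members were chosen by correlation over the same arrays, and this mouse was highest in both members. High levels in it are thus partly built into that choice. Mouse 14 had the highest of 19 levels of miR-125a-5p, miR-125b-5p, miR-195, miR-497, miR-199a-3p, miR-199a-5p, miR-199b*, miR-214, miR-29c* and let-7e. The lowest level well above background on its array was -4.03. Its levels of miR-125a-5p (-3.97), miR-214 (-4.04) and miR-29c* (-4.07) lay near that limit, so their rank is uncertain. Of the stellate and smooth muscle markers, 4 of 7 were tested (miR-143, miR-199a-3p, miR-199a-5p and miR-214), and none passed the threshold at any dose. Their unadjusted p was under 0.05 for 0, 2 and 0 of the 4 as dose increased in limma, against 28, 52 and 53 of all 208. MiR-145 and miR-218 were detected on 0 arrays, and miR-199b was not among the names on the array. The summed level of the list ran from -1.29 to -0.66 in control (median -1.05), from -0.98 to -0.74 at the low dose (median -0.81), from -0.93 to -0.06 at the middle dose (median -0.52) and from -1.30 to -0.47 at the high dose (median -1.11). The value of -0.06 was that of mouse 14. In the middle dose group the summed level was thus highest in the mouse that set the members' values. MiR-143 alone was highest in middle dose mouse 20 (-1.64), next to -1.65 in mouse 14. The next highest sums were those of middle dose mouse 20 (-0.43) and high dose mouse 8 (-0.47). Both had miR-125a-5p at the floor, and their miR-125b-5p levels were -0.08 and -0.12. The part of the markers in the members' values was not tested. MiR-200b was far more uneven: it was -0.97 in low dose mouse 3, -1.37 and -1.85 in middle dose mice 6 and 14 and 0.00 in high dose mouse 8, against -4.38 to -2.93 in control mice.

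**Figure D5:**
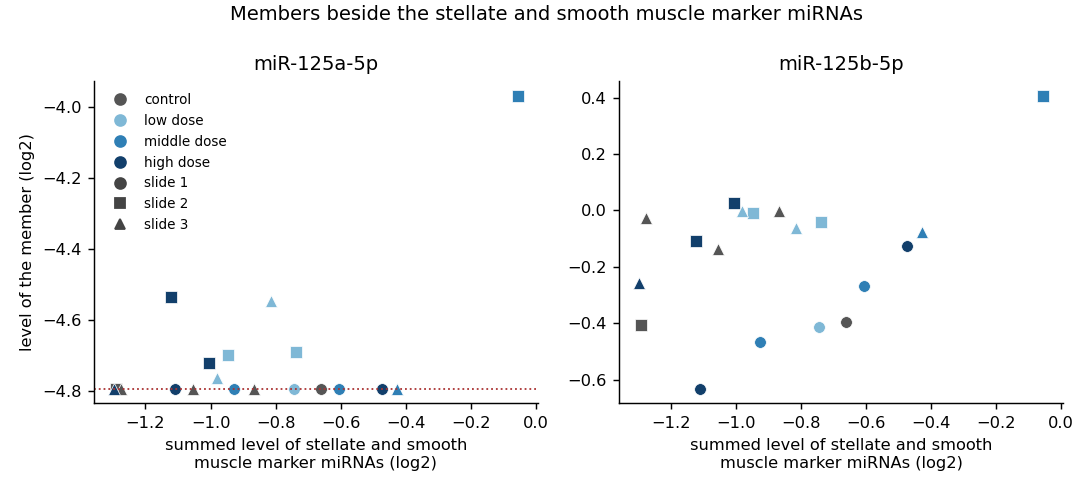
Level of each member (vertical, log2) against the summed level of the 4 tested stellate and smooth muscle marker miRNAs (horizontal, log2) in each mouse, coloured by dose group, with point shape for the slide and a dotted line at the floor. Middle dose mouse 14 has the highest value on both axes in both panels.

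The members' genomic neighbours did not change past the threshold either. The list of cluster partners held 8 miRNAs of the array, of which 5 were tested, and 0 rose or fell at any dose in limma. An unadjusted p under 0.05 was found for 1, 1 and 2 of the 5, against 28, 52 and 53 of all 208, as dose increased. The 5p arm of Mir125a lay 429 bases from that of let-7e and 601 bases from that of Mir99b on the same strand. Let-7e, the nearest neighbour, was higher by 0.29, 0.46 and 0.34 at the 3 doses (limma adjusted p = 0.295, 0.0708 and 0.103), so it missed the threshold at each. Its level averaged -2.51 ± 0.13 in control and -2.17 ± 0.20, -1.96 ± 0.31 and -2.06 ± 0.24 at the low, middle and high dose (SD). MiR-99b was detected on 1 array, and miR-99b* and let-7c-1* on 0. Around Mir125b-1, let-7a differed by 0.15, 0.15 and 0.18 and miR-100 by 0.20, 0.09 and -0.10. Around Mir125b-2, let-7c differed by 0.17, 0.19 and 0.15 and miR-99a by -0.02, -0.10 and -0.19. Let-7a and let-7c are each made from several genes, and their probes cannot assign signal to the copy beside a miR-125b gene. The median of the 5 was 0.17, 0.15 and 0.15, against 0.07, 0.11 and 0.05 over all 208 tested miRNAs.

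Other miRNAs reported to repress p53 did not pass the threshold. Of 5, miR-504 and miR-380-5p were detected on 0 arrays, and miR-25, miR-30d and miR-33 were tested. None of the 3 passed in limma at any dose, and 0, 1 and 0 had an unadjusted p under 0.05, against 28, 52 and 53 of all 208, as dose increased. MiR-25 differed from control by 0.12, 0.25 and 0.10, with its lowest adjusted p of 0.0886 at the middle dose. MiR-30d differed by 0.10, 0.23 and 0.16, and miR-33 by 0.01, -0.07 and 0.07.

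P53 targets other than miR-34a did not pass either. Of 14 on the array, 8 were tested and 6 were detected on 0 arrays: miR-145, miR-215, miR-34b-3p, miR-34b-5p, miR-34c and miR-34c*. The tested ones were miR-107, miR-141, miR-143, miR-15a, miR-16, miR-192, miR-194 and miR-200c, and 0 of 8 were called by limma at any dose, with 0, 0 and 1 at an unadjusted p under 0.05. Over all 208 tested miRNAs, 4.33%, 5.77% and 2.4% were called and 28, 52 and 53 had an unadjusted p under 0.05, so a count of 0 among 8 is near the background. That one was miR-15a at the high dose, at -0.23 (limma adjusted p = 0.0859). The hepatocyte miRNAs miR-192 and miR-194 differed by 0.08, -0.01 and 0.05 and by 0.04, -0.06 and -0.08. The list's median was 0.07, -0.00 and -0.00 at the 3 doses.

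The label of liver was checked against marker lists. All 4 hepatocyte markers were tested and none passed in limma, and their summed level ran from 6.71 to 7.01 at the low dose, from 6.78 to 7.06 at the middle dose and from 6.54 to 7.15 at the high dose, against 6.62 to 7.01 in control. Of the leukocyte markers, 1 of 4 tested rose at each dose, and that was miR-223. Of the 2 endothelium markers, miR-126-3p rose at the low dose (0.29, limma adjusted p = 0.0268) and did not pass at the other doses. None of the 2 erythroid, 7 bile duct and 2 muscle markers tested passed at any dose. Limma called 4.33%, 5.77% and 2.4% of all 208 tested miRNAs as dose increased. A list of this size without a call is thus near the background. The 4 pancreas markers were detected on 0 arrays.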

How the data were processed

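Liver RNA of 19 mice was measured on one-colour Agilent miRNA arrays, with 100 ng labelled with Cyanine 3-pCp per the labels. Per the file headers, Agilent Feature Extraction 10.7.3.1 gave each spot's signal intensity, background-subtracted and not scaled between arrays. The value table of the series holds log2 values that the authors deposited, and how they were scaled is not stated in those sources.

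Control spots and spots marked as outliers were left out, and the other spots of a probe were averaged. A probe was well above background on an array when over 0.5 of its spots were. The brightest probe stood for a miRNA. Signals were divided by each array's 75th percentile over 220 probes, floored at -4.79 and put on the log2 scale. MiRNAs detected on at least 4 arrays were tested (208 of 696). Limma 3.58.1 in R 4.3.3 was fitted over all groups with the slide as a fixed block, two-sided, with Benjamini-Hochberg adjustment over the 208 tested miRNAs and a threshold of 0.05. Differences within arrays were tested with exact two-sided permutation tests, and correlations with 100000 resamples where arrays were too many for exact enumeration. The number of arrays limits the precision.

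Members and lists were chosen with earlier results of these data known. Named miRNAs were the members, miR-34a, other family forms, cluster partners, the 5 most alike, and the p53 lists with those that pass and up to 4 of the brightest. Further p53 list miRNAs named were chosen after their values were seen. The labels give 5 animals per dose, and 4 arrays of the middle dose were analysed here. Each array is 1 mouse. Groups came from the dose in the labels. Alternatives covered background correction, scaling, floor, probe, filter, slide and row blocks, array signal, the value table and each array left out. Normexp used the median spot signal, since a mean signal is not among the columns, in place of the mean signal that was planned. Sequences and coordinates came from RefSeq tables (GRCm38.p6), and the p53 and marker lists did not. The limma and permutation steps were tested on simulated data.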

Additional observations from a re-analysis of the deposited data

Results flagged for a closer look

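In 7 of 24 groups of values, 1 mouse lay far from the others of its group. The control group of miR-125a-5p, with all values at the floor, could not be marked. Chance marks about 1 in 20 groups of normally distributed values in this way, and several of the groups share arrays. That rate does not hold for groups with values raised to the floor. The miR-125a-5p level of middle dose mouse 14 was -3.97, while the other 3 of its group lay at the floor of -4.79, so the gap was the whole range. Before the floor those 3 were -5.38, -4.99 and -4.85. The miR-125a-5p level of high dose mouse 15 was -4.53, next to -4.72, with 3 of the group at the floor. This gap depends on the floor: without it the group was -5.14, -4.93, -4.53, -4.72 and -4.96, and mouse 15 did not stand far from the others. Both arrays lay on slide 2. Low dose mouse 3, on slide 1, had the lowest miR-125b-5p level of its group at -0.41, next to -0.06, and the highest miR-34a level at -0.71, next to -2.86. Its differences were therefore low too, at -4.09 for miR-125a-5p minus miR-34a and 0.29 for miR-125b-5p minus miR-34a. Control mouse 1, also on slide 1, had a miR-125b-5p minus miR-34a difference of 3.35, next to 3.91.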

How the results depend on the processing

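Of 204 tested values of the members over 19 alternatives, 2 passed the threshold, the slopes with no scaling. Of 228 values with 1 array left out, 0 passed in limma (lowest adjusted p = 0.152). Signs changed under many of them, and the cause was not tested. Normexp moved miR-125a-5p upward, to 0.33, 0.72 and 0.38 at the 3 doses (mean 0.48), with the median of all tested miRNAs at 0.30, 0.60 and 0.32. Values are log2 differences from control (slopes per mg/kg/day).

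With no scaling, miR-125a-5p gave -0.0057, -0.10 and -0.38 at the low, middle and high dose, a mean of -0.16 and a slope of -0.0162, and miR-125b-5p gave -0.10, -0.38, -0.67, -0.39 and -0.0280. With the percentile over all probes, miR-125a-5p gave -0.061 (middle), -0.070 (high), -0.017 (mean) and -0.00425 (slope), and miR-125b-5p -0.30, -0.23, -0.18 and -0.0105. The total gene signal, added after seeing the data, gave -0.84, -1.65, -0.34, -0.94 and -0.00616 for miR-125a-5p, and -0.012 (low), -0.024 (high), -0.0043 (mean) and -0.000801 (slope) for miR-125b-5p. High dose and slope of miR-125a-5p were -0.036 and -0.00337 with array signal as a covariate, -0.040 and -0.00227 with quantile normalization and -0.10 and -0.00551 with slide and row blocks. Row largely follows dose on slides 1 and 2, and all 5 high dose arrays lay in row 2, so the fit with row rests mainly on slide 3. Those of miR-125b-5p were -0.059 and -0.00371 with slide and row blocks, -0.026 and -0.0019 with no slide block and -0.0035 and -0.00071 with a random block, and its slope was -0.000615 with the covariate. The mean of all probes gave -0.0038 (low) and -0.0027 (high) for miR-125a-5p, and the value table -0.016 (low) and -3.4e-05 (middle). On slide 2 alone miR-125a-5p gave 0.83 (middle) and miR-125b-5p 0.38, 0.81 and 0.36. On slides 1 and 3 miR-125a-5p gave 0 (middle), with all values compared at the floor.

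MiR-125a-5p minus miR-125b-5p was -0.088 and -0.091 (low and middle) with a floor 4 times higher, -0.088 and -0.059 with the mean of all probes and -0.035 and -0.015 with the value table. Minus miR-34a, the low dose changes missed the threshold with the higher floor (-0.42 for miR-125a-5p and -0.33 for miR-125b-5p) and with normexp (-0.42 and -0.75), as did the middle dose change of miR-125a-5p with normexp (-1.01). With normexp the members' correlation was 0.098 (permutation p = 0.677).

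With each array left out in turn, miR-125a-5p ran from -0.0056 to 0.10 (low), from -0.014 to 0.092 (high) and from -0.000541 to 0.00364 (slope). MiR-125b-5p ran from -0.044 to 0.11 (low), from -0.10 to 0.10 (high), from -0.022 to 0.13 (mean) and from -0.00343 to 0.00402 (slope). Their difference at the low dose ran from -0.046 to 0.060.

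The counts of called miRNAs (9, 12 and 5 at the low, middle and high dose) were 0, 36 and 1 with the percentile over all probes, 0, 2 and 70 with no scaling, 0, 1 and 23 with spike-in scaling, 0, 1 and 1 with normexp, 0, 9 and 9 with quantile normalization, 3, 15 and 19 with no slide block, 8, 2 and 1 with slide and row blocks, 8, 1 and 2 with the covariate, 2, 3 and 3 with the lower floor, 0, 2 and 3 with all miRNAs tested, 7, 14 and 12 with miRNAs detected on all arrays and 2, 7 and 14 with the value table. With 1 array left out they ran from 0 to 13, from 2 to 36 and from 1 to 23. Control mice 10 and 1 gave the ends at the low dose, middle dose mouse 6 and control mouse 1 at the middle dose, and high dose mouse 23 and control mouse 1 at the high dose. The remaining settings moved at least 1 of the counts too: 6, 8 and 2 with the higher floor, 9, 12 and 3 with the mean of all probes, 7, 2 and 2 with only the groups compared, 8, 13 and 11 with a random block, and, added after seeing the data, 0, 14 and 9 with total gene signal and 11, 5 and 36 without slide 1. No paired analysis was possible because the groups share no replicate numbers. Signal over background limits miR-125a-5p, with 12 of its 19 values at the floor.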
